A study of Mus musculus with 10 samples.

Results

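Type I interferon-stimulated genes are the genes that cells switch on after interferon alpha or beta binds its receptor. The 35 genes examined here were listed by symbol and matched by Ensembl identifier in a table of 49671 genes, and all 35 were found. Their RNA was read in mouse TH2 cells, the helper cells of type 2 immunity, on day 5 of polarisation in culture. The 7 vitamin D-deficient libraries came from C57BL/6 mice reared without ultraviolet light on food without vitamin D metabolites. The 3 control libraries came from C57BL/6 mice whose standard food held 400 IU vitamin D3 in each kg. Both groups carry the genotype label WT, were second-generation offspring and received no further treatment. Whether each library stands for its own mouse is not stated, so the p-values here reflect spread between samples that may be technical.

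In this pathway, the receptor chains encoded by Ifnar1 and Ifnar2 activate the kinases Jak1 and Tyk2. These phosphorylate STAT proteins, among them Stat2, which with Irf9 bind interferon-stimulated response elements in promoters. Interferon gamma, the product of activated T and natural killer cells, has its own receptor and acts mainly through gamma-activated sites. Many of the same target genes respond to both kinds of interferon. Their products sense viral nucleic acid, degrade or edit RNA, deplete nucleotides, trap budding virus or attack the vacuoles of intracellular parasites.

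The interferon-stimulated genes moved in both directions between the diets. Enough counts for a test were present for 29 of the 35, of which 15 were higher and 6 were lower in the vitamin D-deficient cells, while 8 did not pass (quasi-likelihood F test of edgeR, adjusted p below 0.05 by Benjamini-Hochberg over all genes). Over all 13699 genes tested, 29.4% were higher, 28.6% were lower and 58% were called in either direction. Without control library 3, 9 members were higher and 5 lower. Over the fits that each leave out 1 library, 3432 to 4107 genes were higher and 3341 to 3989 lower, against 4032 and 3915 with all libraries. At least 2-fold, 13 members were higher and 2 lower, beside 10.3% and 8.71% of all genes. The median log2 fold change was 0.88 for the 29 tested members, also with Ifi44 at its lower bound, and 0.02 for all genes tested. The members' median was 0.44 at a minimum count of 50, 0.54 in batch 1 alone and 0.36 without deficient libraries 5 to 7. The filter on low counts bears on these figures, since 9 of the 29 had fewer than 10 counts in every control library and passed through the deficient libraries. Of those 9, 7 were higher and 0 lower at that threshold, whereas of the 20 with more control counts 8 were higher and 6 lower. The members that rose included the immunity-related GTPases Igtp, Irgm1 and Iigp1, the nucleic acid sensor Zbp1 and the antiviral genes Mx1, Eif2ak2 and Bst2. The members that fell included Ifi27l2a, the nucleotide phosphohydrolase gene Samhd1 and the signal transducer Stat2.

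**Figure D1:**
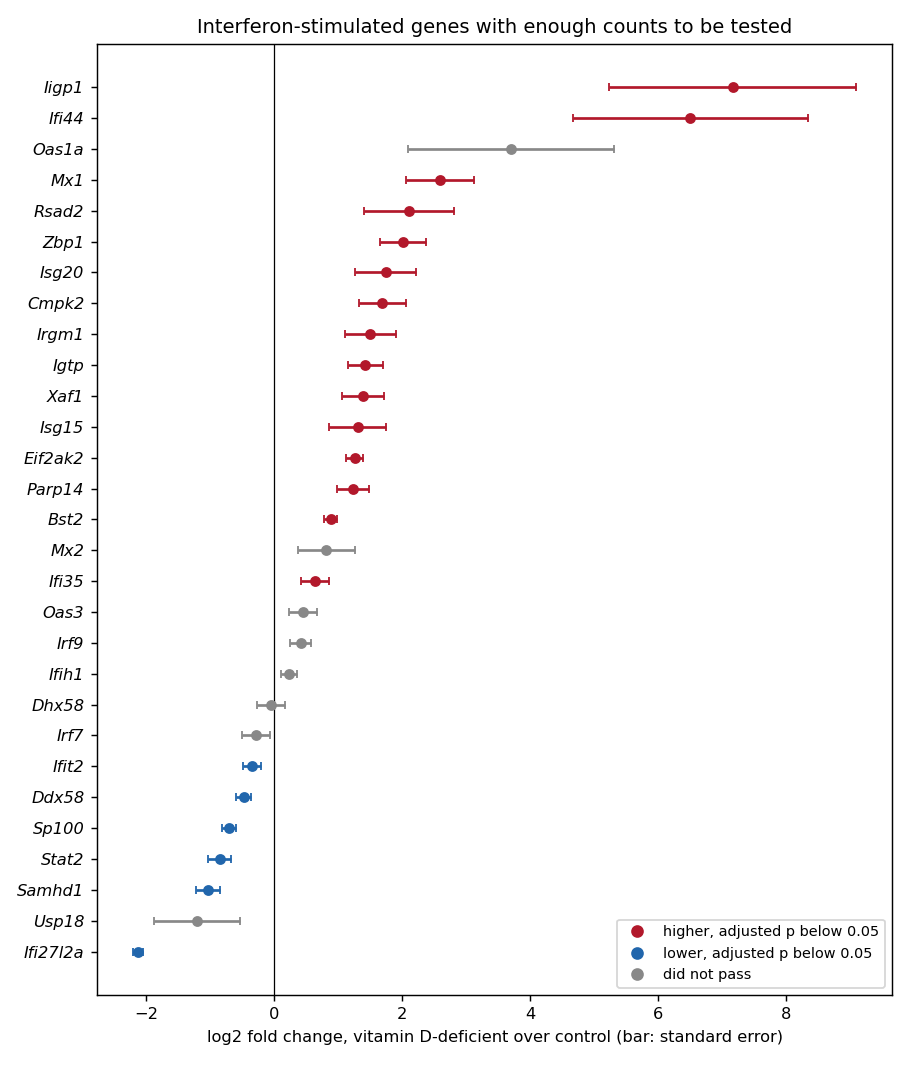
Log2 fold change of vitamin D-deficient over control cells (x axis) for the 29 tested members (y axis), with the standard error as a bar and the colour showing the outcome of the test. Values ran from -2.13 for Ifi27l2a to 7.16 for Iigp1, and the fitted value of Ifi44 rests on 0 control counts.

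Promoter windows from RefSeq (GRCm38.p6, 250 bases before to 50 after each start site) were at hand for 25 members. An interferon-stimulated response element, searched as GAAA, any 2 bases and GAAA on both strands with overlaps allowed, stood in 13 of these 25, or 52%, against 3.99% of the 27025 genes with such a window. A gamma-activated site, searched as TTCNNNGAA, which reads the same on both strands, stood in 8 of 25, or 32%, against 9.55% of all genes. Of 11 members with a window whose RNA rose, 6 held a response element and 5 a gamma-activated site. Of 5 whose RNA fell, 2 held a response element and 2 a gamma-activated site. These are matches of letters in a fixed window, and members with and without them lay on both sides of zero. 5 promoters are printed as examples, with matches to the response element in capitals, and they do not stand for all windows. Cmpk2, Ifi35, Ifi44, Isg20 and Xaf1 rose with no response element in the window, and Ddx58 fell with a match at position 3. Irgm1 (chr11:48871371-48871670 (- strand)), Igtp (chr11:58199306-58199605 (+ strand)) and Bst2 (chr8:71537423-71537722 (- strand)) belong to genes whose RNA rose, and Stat2 (chr10:128270248-128270547 (+ strand)) and Samhd1 (chr2:157135047-157135346 (- strand)) to genes whose RNA fell.
Irgm1 promoter: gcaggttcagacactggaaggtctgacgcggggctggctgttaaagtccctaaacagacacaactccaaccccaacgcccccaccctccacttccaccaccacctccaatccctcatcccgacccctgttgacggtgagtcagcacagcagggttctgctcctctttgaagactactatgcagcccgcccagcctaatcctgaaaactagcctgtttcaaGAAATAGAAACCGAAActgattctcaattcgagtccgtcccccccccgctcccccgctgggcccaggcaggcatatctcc
Igtp promoter: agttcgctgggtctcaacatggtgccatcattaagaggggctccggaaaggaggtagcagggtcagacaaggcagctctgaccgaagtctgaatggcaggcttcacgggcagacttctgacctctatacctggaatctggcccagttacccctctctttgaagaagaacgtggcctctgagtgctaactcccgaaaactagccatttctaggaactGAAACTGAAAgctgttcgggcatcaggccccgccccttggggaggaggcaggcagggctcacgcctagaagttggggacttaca
Bst2 promoter: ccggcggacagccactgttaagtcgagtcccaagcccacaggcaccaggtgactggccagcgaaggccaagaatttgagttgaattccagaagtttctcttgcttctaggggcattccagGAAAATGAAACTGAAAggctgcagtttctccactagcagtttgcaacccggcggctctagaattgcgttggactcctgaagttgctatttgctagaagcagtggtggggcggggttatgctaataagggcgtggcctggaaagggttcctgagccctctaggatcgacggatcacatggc
Stat2 promoter: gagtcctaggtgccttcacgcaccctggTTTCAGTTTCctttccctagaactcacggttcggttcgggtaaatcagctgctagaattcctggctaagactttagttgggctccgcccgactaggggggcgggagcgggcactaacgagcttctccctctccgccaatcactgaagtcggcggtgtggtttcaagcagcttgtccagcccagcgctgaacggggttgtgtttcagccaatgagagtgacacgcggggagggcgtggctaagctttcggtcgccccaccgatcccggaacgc
Samhd1 promoter: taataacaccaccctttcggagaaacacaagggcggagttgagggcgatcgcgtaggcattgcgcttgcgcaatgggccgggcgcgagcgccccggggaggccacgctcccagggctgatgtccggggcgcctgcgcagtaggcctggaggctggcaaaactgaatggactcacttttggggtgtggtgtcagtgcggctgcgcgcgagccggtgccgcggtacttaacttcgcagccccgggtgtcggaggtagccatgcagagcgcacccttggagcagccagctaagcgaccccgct
Irgm1 and Bst2 each held a pair of overlapping response elements, beginning at positions -30 and -24 in Irgm1 and -130 and -124 in Bst2, where -1 is the base before the start site. Bst2 also held a gamma-activated site at -136. Igtp held 1 response element at -34, with a gamma-activated site at -45. The Stat2 match began at -222. Samhd1 had no response element in this window and 1 gamma-activated site at -235.

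**Figure D2:**
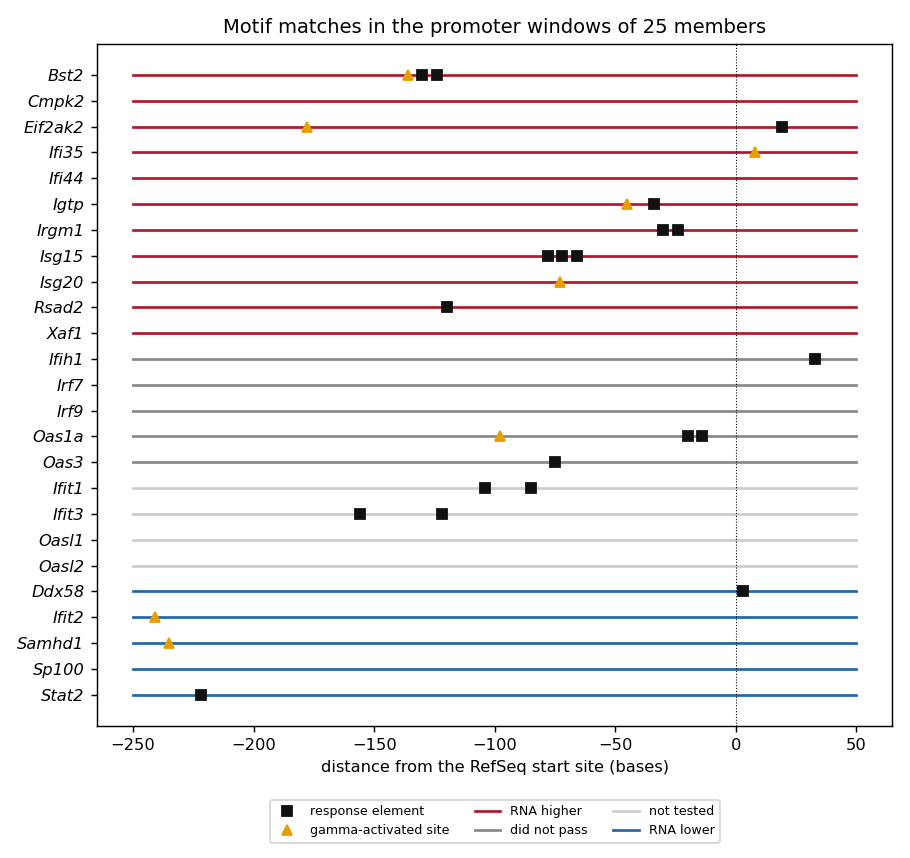
Positions of motif matches relative to the RefSeq start site (x axis, bases) in the windows of 25 members (y axis), with line colour showing the outcome for the RNA; genes with several start sites are drawn on 1 line. Matches stood in both rising and falling genes, and the 3 overlapping response elements of Isg15 began at -78, -72 and -66.

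Of the 4 signalling members 1 fell and 3 did not pass the test, beside 58% of all genes called in either direction. Stat2 (ENSMUSG00000040033, chromosome 10, 128270559 to 128292849 of GRCm38), the transducer particular to type I and type III interferon signals, ran from 19.8 to 38.1 CPM (counts scaled to the library total) with a median of 23.7 in the 7 deficient libraries. The control libraries gave 45.0, 50.7 and 48.7 CPM. Every deficient library lay below every control, and the log2 fold change was -0.85 (SE 0.18, adjusted p = 0.00219). Its partner Irf9 had a lowest, median and highest value of 34.7, 43.2 and 59.3 CPM in the deficient libraries, against 30.3, 35.0 and 35.0 CPM in the controls. The groups overlapped, and Irf9 just missed the threshold (0.41, SE 0.16, adjusted p = 0.0510); it passed with DESeq2 (adjusted p = 0.0183) and in 11 of the other 22 alternatives.

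Irf7, the transcription factor that amplifies interferon alpha production, was barely read in either group. It gave 2.43, 2.90 and 3.70 CPM as lowest, median and highest of the deficient libraries, against 3.10, 3.53 and 3.87 CPM in the controls (-0.28, SE 0.22, adjusted p = 0.274). Usp18, the protease that removes Isg15 from proteins and blocks the type I receptor, split the deficient libraries. Libraries 1 to 4 gave 0.850, 1.36, 1.71 and 1.25 CPM and libraries 5 to 7 gave 7.05, 8.34 and 4.22 CPM, against 7.41, 8.02 and 6.65 CPM in the controls. With all libraries it did not pass (-1.22, SE 0.67, adjusted p = 0.156). Without deficient libraries 5 to 7, an alternative added after the data were seen, it fell by 2.703 on the log2 scale (adjusted p = 3.17e-08), and without library 5 alone by 1.68 (adjusted p = 0.0183).

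The cytosolic sensors went different ways. Zbp1 (chromosome 2, 173206612 to 173218923), a sensor of left-handed nucleic acid that can trigger necroptosis, gave 12.8, 17.5 and 31.0 CPM as lowest, median and highest of the deficient libraries. The controls gave 4.65, 5.61 and 4.64 CPM, below every deficient library (2.02, SE 0.36, adjusted p = 0.000852). Ddx58, which encodes the RNA sensor RIG-I, fell to 40.7 ± 6.99 CPM in deficient cells (SD, n = 7), against 54.1 ± 7.82 CPM in controls (SD, n = 3; -0.48, SE 0.12, adjusted p = 0.00338), although the groups overlapped. Ifih1, the sensor of long double-stranded RNA, averaged 45.0 ± 7.67 CPM in deficient and 35.7 ± 4.63 CPM in control cells (0.23, SE 0.13, adjusted p = 0.149; called at 0.28 without deficient library 5). Dhx58, a regulator of both sensors, averaged 7.33 ± 2.04 CPM in deficient and 7.18 ± 0.67 CPM in control cells (-0.05, SE 0.22, adjusted p = 0.845).

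**Figure D3:**
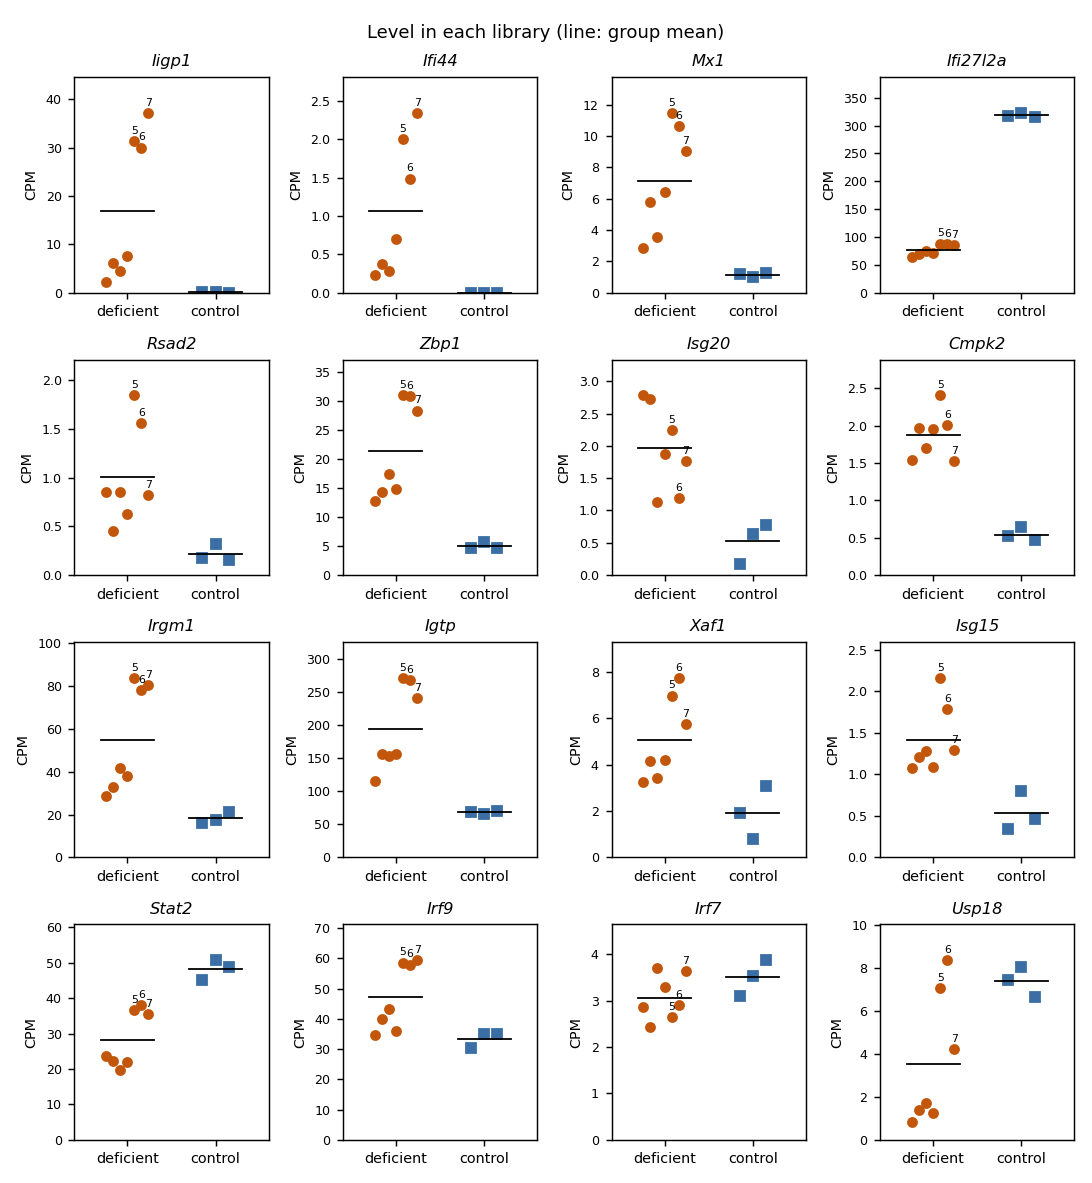
CPM in each library (y axis, from 0 in every panel) for the 12 called members of largest fold change and the 4 signalling members, with deficient libraries as circles, control libraries as squares, a line at each group mean and deficient libraries 5 to 7 numbered. Igtp lay between 115 and 271 CPM in the deficient libraries and between 66.2 and 69.5 CPM in the controls, while Usp18 overlapped.

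The immunity-related GTPases, which load onto pathogen vacuoles in mice and are strongly inducible by interferon gamma, all rose. Iigp1 (chromosome 18, 60376027 to 60392634) gave 2.09, 7.58 and 37.2 CPM as lowest, median and highest of the deficient libraries, against 0.172, 0.160 and 0 CPM in the controls. The controls held 2 counts in all, and the ratio of deficient to control was 155 (95% counting interval 42.9 to 1282, exact binomial). That interval leaves out the spread between the deficient libraries. The log2 fold change was 7.16 (SE 1.93, adjusted p = 0.0148), a call lost with limma-voom, in batch 1 alone and without control library 3. Irgm1 (chromosome 11, 48861968 to 48871683), a regulator of the family and of autophagy, gave 28.5, 41.5 and 83.8 CPM in the deficient libraries, against 16.03, 17.6 and 21.2 CPM in the controls (1.498, SE 0.40, adjusted p = 0.0132). Igtp (chromosome 11, 58199556 to 58207591), another regulator of the family, gave 115, 156 and 271 CPM in the deficient libraries, against 67.9, 66.2 and 69.5 CPM in the controls (1.42, SE 0.28, adjusted p = 0.00266). In each of the 3 genes every deficient library lay above every control, beside 29.4% of all genes, and Iigp1 passed the filter through the deficient libraries. Libraries 5 to 7 were the highest of the deficient group in each, beside 14.3% of all genes. The Irgm1 and Igtp promoters printed above both carry a response element close to the start. Igtp shares exons with its neighbour Irgm2, and 11.8% of its annotated 50-base stretches with other genes, Irgm2 first. Reads of this pair may therefore be lost or split. Irgm2 itself rose by 1.63 (adjusted p = 4.35e-05).

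Without control library 3, the calls of Iigp1 (5.79) and Irgm1 (1.32) were lost and those of Ifi35 (0.45), Ifi44 (5.94), Ifit2 (-0.19), Isg15 (1.13) and Rsad2 (1.75) with them, which left 9 members higher and 5 lower. Within batch 1 alone, where that library is absent, the count was also 9 higher and 5 lower, beside 24.7% and 23.6% of all genes (48.4% in either direction), and within batch 2 alone it was 14 and 6, beside 23.5% and 23.4% (46.9% in either direction). Batch 2 holds only 1 control library, whose variation that fit takes to equal that of the deficient pair. Calls over all genes also moved when 1 library was left out, from 3432 to 4107 higher and from 3341 to 3989 lower.

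The Mx proteins are dynamin-like GTPases that block virus replication. Mx1 gave 2.86, 6.41 and 11.5 CPM as lowest, median and highest of the deficient libraries, against 1.21, 0.962 and 1.24 CPM in the controls, with no overlap (2.59, SE 0.52, adjusted p = 0.00148). The reference strain C57BL/6 is known to carry a defective Mx1 gene, so its RNA is not a measure of the protein. Mx2 averaged 1.43 ± 0.52 CPM in deficient and 0.765 ± 0.42 CPM in control cells and did not pass (0.81, SE 0.45, adjusted p = 0.133).

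Oligoadenylate synthetases make the messenger that activates RNase L. Of the 5 listed synthetases and relatives, 2 had enough counts and neither passed the test. Other genes of this family, outside the list, are named after their values were seen. Oas1b was called higher (0.90, adjusted p = 0.00523), and Oas1c was not called (-0.17, adjusted p = 0.494). Oas1g held 8 counts over the deficient and 2 over the control libraries, too few for a test. Oas3, the listed gene of this family with the most counts, averaged 12.5 ± 3.26 CPM in deficient and 8.60 ± 1.68 CPM in control cells (0.44, SE 0.22, adjusted p = 0.0935; called at 0.67 without control library 2). Oas1a held 63 counts over the deficient libraries, 5 to 7 highest at 1.603, 1.64 and 1.76 CPM, and 1 count over the controls (ratio 14.5, 95% counting interval 2.51 to 582; adjusted p = 0.0668; called without deficient library 2, 4 or 5, at 3.31 to 3.82), and it shares 57.6% of its stretches with other genes, Oas1g first. Oas2, Oasl1 and Oasl2 were at most 1.202 CPM in any library and too low to be tested. Oas2 held 9 counts over the deficient and 1 over the control libraries, Oasl1 held 9 over the deficient and 5 over the control libraries, and Oasl2 held 44 over the deficient and 5 over the control libraries.

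The Ifit genes, whose products bind foreign RNA ends and block translation, and Isg15, a ubiquitin-like modifier, are textbook type I responders. Ifit1, Ifit3 and Isg15 were low in every library. Ifit1 peaked at 1.29 CPM and Ifit3 at 0.670 CPM across the 10 libraries, and neither had enough counts for a test. Ifit1 held 53 counts over the deficient and 6 over the control libraries. Ifit3, which shares 51.2% of its stretches with Ifit3b and other genes, held 34 over the deficient and 1 over the control libraries (ratio 7.82, 95% counting interval 1.31 to 318). Ifit2 was the most abundant of the family, with a lowest, median and highest value of 11.6, 14.1 and 19.4 CPM in the deficient libraries, against 18.3, 15.9 and 19.5 CPM in the controls. Its call as lower (-0.35, SE 0.14, adjusted p = 0.0377) was lost in 14 of the 23 alternatives, 6 of which leave out 1 library (deficient 1, 3, 6 or 7, control 1 or 3; -0.35 to -0.19). Isg15 gave 1.08, 1.28 and 2.16 CPM in the deficient libraries, against 0.345, 0.802 and 0.464 CPM in the controls (1.30, SE 0.45, adjusted p = 0.0214). It rests on 10 control counts, and its call was lost in 4 alternatives, among them without control library 1 (1.11) and without control library 3 (1.13).

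Of 6 further antiviral effectors with enough counts, 5 rose and 1 fell, beside 29.4% higher and 28.6% lower among all genes. Bst2, which encodes tetherin, had a lowest, median and highest value of 42.0, 45.9 and 54.6 CPM in the deficient libraries, against 25.2, 26.1 and 20.7 CPM in the controls (0.88, SE 0.10, adjusted p = 3.98e-06). Eif2ak2, the double-stranded RNA kinase PKR that halts translation, gave 33.1, 39.5 and 52.0 CPM in the deficient libraries, against 14.998, 14.6 and 19.5 CPM in the controls (1.26, SE 0.14, adjusted p = 1.79e-06). In both genes every deficient library lay above every control, beside 29.4% of all genes.

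Rsad2, the nucleotide-modifying enzyme viperin, and its neighbour Cmpk2, a mitochondrial nucleotide kinase, rose at low levels. Rsad2 gave 0.455, 0.850 and 1.84 CPM in the deficient libraries, against 0.172, 0.321 and 0.155 CPM in the controls (2.101, SE 0.71, adjusted p = 0.0188; not called without control library 1, at 2.05, or control library 3, at 1.75). Cmpk2 gave 1.52, 1.95 and 2.40 CPM in the deficient libraries, against 0.517, 0.641 and 0.464 CPM in the controls (1.69, SE 0.36, adjusted p = 0.000976). Isg20, an RNA exonuclease gene, gave 1.14, 1.88 and 2.78 CPM in the deficient libraries, against 0.172, 0.641 and 0.774 CPM in the controls (1.74, SE 0.48, adjusted p = 0.00616). None of these 3 genes overlapped between the groups, beside 50.8% of all genes without overlap in either direction. All 3 had fewer than 10 counts in every control library and passed the filter through the deficient libraries. Rtp4 had 14 counts over the deficient libraries and 0 over the controls, which allows up to 0.162 CPM there, and could not be tested.

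Samhd1 (chromosome 2, 157097533 to 157135265), the enzyme that depletes deoxynucleotides and restricts retroviruses in resting cells, went the other way. Its lowest, median and highest values were 232, 244 and 408 CPM in the deficient libraries, against 559, 574 and 569 CPM in the controls (-1.04, SE 0.19, adjusted p = 0.00153). Here too deficient libraries 5 to 7 were the highest of the deficient group, at 408, 369 and 332 CPM, but all stayed below the controls.

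Ifi27l2a (ENSMUSG00000079017, chromosome 12, 103442167 to 103443680), a small mitochondrial or nuclear envelope protein gene induced by interferon, showed the strongest fall. It gave 64.8, 75.0 and 87.9 CPM as lowest, median and highest of the deficient libraries, against 317, 323 and 316 CPM in the controls (-2.13, SE 0.08, adjusted p = 1.73e-11). The spread inside each group was far smaller than the gap between them. Sp100, a nuclear body protein gene, fell to 67.5 ± 10.8 CPM in deficient cells (SD, n = 7), against 104 ± 5.00 CPM in controls (SD, n = 3; -0.71, SE 0.11, adjusted p = 8.47e-05).

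The remaining members rose. Parp14, an ADP-ribosyltransferase gene, reached 80.4 ± 25.1 CPM in deficient cells, against 32.7 ± 5.74 CPM in controls (1.23, SE 0.25, adjusted p = 0.00295). Ifi35 reached 55.1 ± 14.3 CPM in deficient cells, against 33.4 ± 1.57 CPM in controls (0.63, SE 0.22, adjusted p = 0.0302), a call lost without control library 2 (0.68) or control library 3 (0.45). Xaf1, a gene of a pro-apoptotic protein, gave 3.25, 4.22 and 7.74 CPM as lowest, median and highest of the deficient libraries, against 1.90, 0.802 and 3.09 CPM in the controls (1.38, SE 0.32, adjusted p = 0.00191). Ifi44 gave 0.232, 0.704 and 2.35 CPM in the deficient libraries and 0 counts in the controls, which makes it at least 6.44-fold higher if the control group is set to 3 counts in all (adjusted p = 0.0105; lost without control library 3).

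Per kilobase of annotated exon, the order of the members differed between the groups. In deficient cells Ifi27l2a led with 167 CPM per kilobase, followed by Igtp at 96.0, Bst2 at 51.9, Samhd1 at 32.1 and Ifi35 at 31.9. In control cells Ifi27l2a stood at 687 CPM per kilobase, followed by Samhd1 at 62.0, Igtp at 33.6, Bst2 at 26.6 and Ifi35 at 19.3. The same 5 genes led in both groups. Samhd1 and Ifi35 were nearly level in the deficient cells, within the spread of their libraries.

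Every deficient library lay above every control for 15 of the 29 tested members and below for 4, beside 29.4% and 21.4% of all genes (50.8% either way). The 15 include Isg15, Mx1, Iigp1, Rsad2, Cmpk2, Isg20 and Ifi44, each with fewer than 10 counts in every control library. These passed the filter through the deficient libraries, so their lack of overlap is partly set by it. Among the deficient libraries themselves, 22 of the 29 were higher in each of libraries 5, 6 and 7 than in any of libraries 1 to 4, and 2 were lower, against 14.3% and 13.4% of all genes. Library 5 carries the label of batch 1 and libraries 6 and 7 that of batch 2. The 22 included 12 of the 15 members that rose and 5 of the 6 that fell, so the same libraries stood farther from the controls for the risers and nearer to them for the fallers. Without libraries 5 to 7, 12 members were higher and 6 lower, beside 28.5% and 27.9% of all genes (56.4% either way), and Iigp1, Irgm1 and Igtp still rose by 4.74, 0.96 and 1.02 on the log2 scale. Ifi35, Ifi44, Ifit2, Isg15 and Rsad2 were then no longer called, Ifi44, Isg15 and Rsad2 because too few counts were left for a test. For the batch term of the same fit, 0 members passed in edgeR (3 at an unadjusted p below 0.05; smallest adjusted p = 0.629), and 0 with DESeq2 or limma-voom, beside 0% of all genes.

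**Figure D4:**
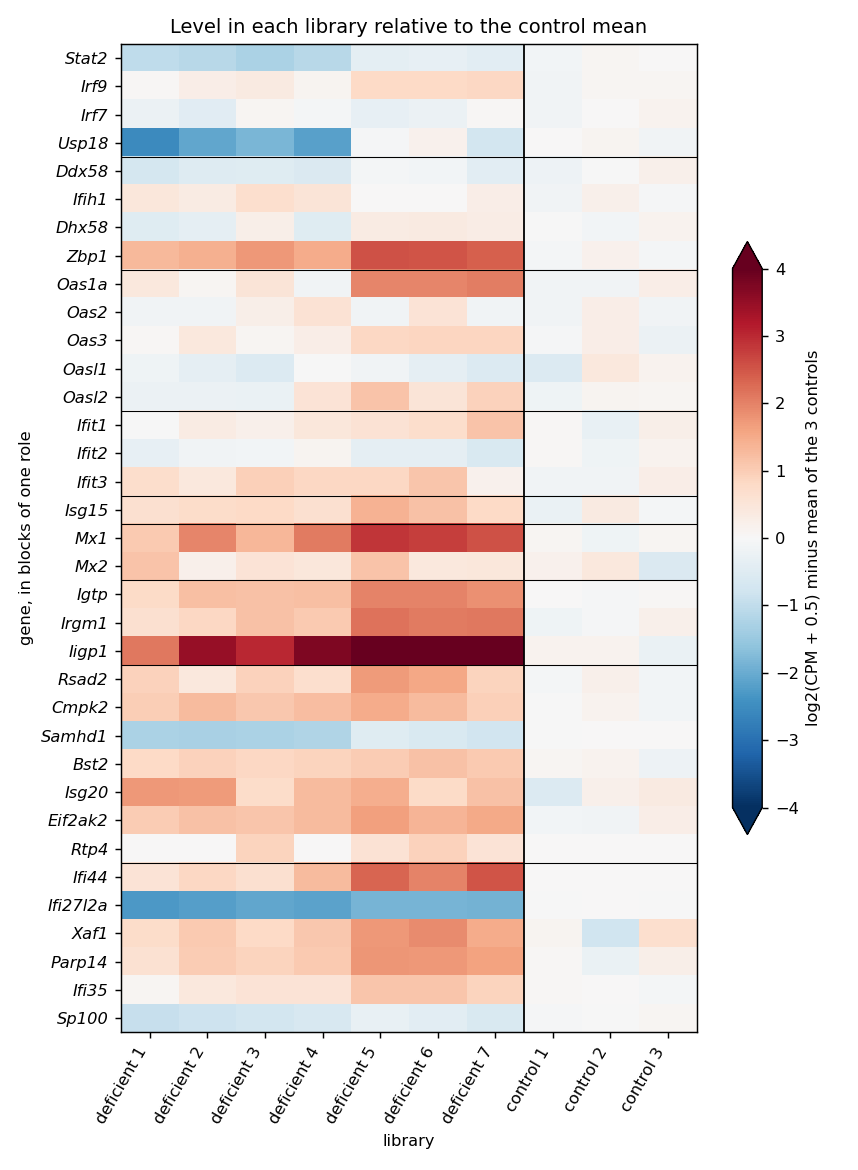
Level of all 35 members (y axis, in blocks of one role) in each of the 10 libraries (x axis), as log2(CPM + 0.5) minus the mean of the 3 controls; colours saturate at 4 on either side. Deficient libraries 5 to 7 are redder or less blue than libraries 1 to 4 in most rows, and Ifi27l2a and Samhd1 are lower in all 7 deficient libraries.

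Among the ligands, no type I interferon was read at a level that allowed a test. Ifnb1, the interferon beta gene, had 0 counts in all 10 libraries, which allows up to 0.0373 CPM over the deficient and 0.162 CPM over the control libraries, counting error alone. Of 21 ligand genes, 12 were at 0 everywhere, and the 20 other than Ifng summed to 24 counts in the deficient and 6 in the control libraries. Ifng, the type II interferon gene, gave 36.8, 63.1 and 198 CPM as lowest, median and highest of the deficient libraries, against 3.62, 2.24 and 7.58 CPM in the controls (4.55, SE 0.84, adjusted p = 0.00245). Its highest values, 198, 189 and 146 CPM, stood in deficient libraries 5, 6 and 7.

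The type I receptor chains fell and the interferon gamma receptor chains parted. Ifnar1 fell to 113 ± 7.75 CPM in deficient cells, against 185 ± 5.28 CPM in controls (-0.81, SE 0.07, adjusted p = 8.46e-08). Ifnar2 fell to 24.3 ± 2.22 CPM in deficient cells, against 45.0 ± 5.99 CPM in controls (-0.96, SE 0.09, adjusted p = 4.05e-07). Ifngr2, the signalling chain for interferon gamma, fell by 1.06 (adjusted p = 6.70e-07), whereas Ifngr1, its ligand-binding chain, had a log2 fold change of 0.84 (adjusted p = 0.0301) that missed the threshold in 6 alternatives, including those without deficient library 6 (0.78) or control library 1, 2 or 3 (0.94, 0.88 and 0.69). Ifnlr1 and Il10rb did not pass.

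Of 7 transducers tested, 2 rose and 3 fell, beside 29.4% higher and 28.6% lower among all genes. Tyk2 rose by 0.23 (adjusted p = 0.00766; not called without control library 1, at 0.18), while Jak1 fell by 0.48 (adjusted p = 2.16e-05), Jak2 by 0.75 (adjusted p = 2.02e-07) and the coactivator gene Ep300 by 0.33 (adjusted p = 0.00360).

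**Figure D5:**
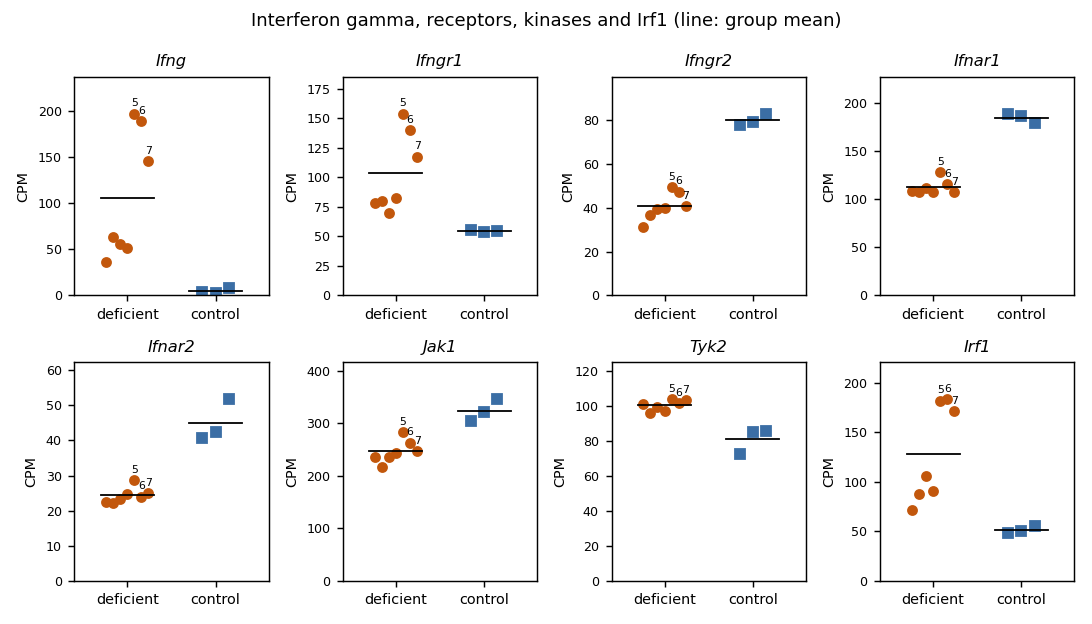
CPM in each library (y axis, from 0) for interferon gamma, receptor chains, kinases and Irf1, drawn as in the plot of the members by library. Ifng, Ifngr1, Irf1 and Tyk2 were above every control in all 7 deficient libraries, and Ifngr2, Ifnar1, Ifnar2 and Jak1 below.

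Upstream of the ligands, 15 sensor and adaptor genes were tested, of which 5 rose and 6 fell, beside 29.4% and 28.6% of all genes. Irf3, the factor that starts interferon beta transcription, rose by 0.40 (adjusted p = 0.00110), Zcchc3 by 0.87 and Unc93b1, the carrier of endosomal Toll-like receptors, by 0.60 (not called without control library 3, at 0.44). The kinase genes Ikbke and Tbk1 fell by 0.98 and 0.27, and Traf6 by 0.33. Of 13 negative or modulating regulators, 2 rose and 5 fell, beside the same shares of all genes. Nlrc5, listed there but better known as the transactivator of MHC class I genes, rose by 2.44 (adjusted p = 3.86e-11), Ptpn11 rose by 0.19 (not called without control library 1, at 0.20, or control library 2, at 0.17), and Trim24, Ptpn2 and Irf2bp2 fell by 1.22, 0.48 and 0.31. Socs1, the feedback inhibitor of JAK kinases, averaged 30.5 ± 6.03 CPM in deficient and 32.6 ± 2.19 CPM in control cells (-0.18, adjusted p = 0.366).

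In the small machinery that attaches Isg15, the ligase gene Herc6 rose by 1.24 and the conjugating enzyme gene Ube2l6 by 1.04, Uba7, the dedicated activating enzyme gene, did not pass at 0.25 (adjusted p = 0.342), and the ubiquitin enzyme gene Uba1 fell by 0.26. Of 54 further interferon-stimulated genes tested, 23 rose and 13 fell, with a median log2 fold change of 0.27, beside 29.4% higher and 28.6% lower among all genes. The cytidine deaminase gene Apobec3 rose by 2.27, Trim34a by 2.67 and Nmi by 1.64, while Phf11b fell by 0.88, Nt5c3 by 0.63 and the nuclear body gene Pml by 0.96. Of 13 genes known as interferon gamma targets, 10 rose and 1 fell, with a median of 1.14. The peptide transporter gene Tap1 rose by 1.14, Cd274, which encodes PD-L1, by 0.68, Psmb10 by 1.12 and Irf1, the first-line transcription factor of the interferon gamma response, by 1.21 (adjusted p = 0.0119; not called without control library 3, at 1.02). Tapbp fell by 0.24, a call lost when any 1 of deficient libraries 1, 2, 3, 4 and 6 or control libraries 1 and 2 was left out (-0.23 to -0.15). Over all these lists, members left out, 46 of 113 tested genes rose and 32 fell, to be read against 29.4% and 28.6% of all genes.

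Markers of the labelled cell type were read in every library. Cd4 stood between 298 and 396 CPM in the deficient and between 707 and 734 CPM in the control libraries, and Gata3, Cd3e and Cd4 fell with log2 fold changes of -0.84, -1.04 and -1.201, while Il13 rose by 1.21 and Il4 stood at 0.05 (adjusted p = 0.868). Of the 6 TH2 markers 2 rose, Il13 and Il5 (0.84, adjusted p = 0.0302), and 3 fell. Markers of other cells differed as well. The marker counts in this paragraph are to be read against 29.4% higher and 28.6% lower among all genes. The 4 TH1 markers, Ifng among them and all higher, summed to 147 to 403 CPM in the deficient and 13.8 to 21.7 CPM in the control libraries, and Tbx21 rose by 5.45. Both CD8 markers rose, with a summed level of 28.3 to 155 CPM in the deficient and 7.59 to 16.4 CPM in the control libraries; Cd8a was not called without control library 1, 2 or 3 (4.72, 5.21 and 5.59, against 5.06 with all). Of 8 B cell markers 2 rose, and their sum was 56.9 to 83.3 CPM in deficient libraries 1 to 4 and 284 to 321 CPM in libraries 5 to 7, against 19.1, 15.9 and 105 CPM in the controls. Of 5 natural killer cell markers 2 rose, and they summed to 5.25 to 18.2 CPM in the deficient and 2.73 to 7.74 CPM in the control libraries. Plasmacytoid dendritic cell markers, 4 of 5 tested higher, summed to 22.5 to 47.7 CPM in the deficient and 7.86 to 10.7 CPM in the control libraries, but the defining Siglech was at 0 in all 7 deficient libraries. Of the conventional dendritic cell markers 2 of 4 rose, at summed levels of 30.7 to 45.2 CPM in the deficient and 10.7 to 15.8 CPM in the control libraries, with Xcr1 and Clec9a at most 0.235 CPM. Macrophage markers, 2 of 4 higher and 1 lower, summed to 8.25 to 14.4 CPM in the deficient and 15.7 to 17.8 CPM in the control libraries, with Csf1r at most 0.285 CPM, and neutrophil markers stayed at or under 0.670 CPM. The part of these cells in the values above was not tested, and in bulk RNA a change in the number of cells of a type and a change of RNA per cell cannot be told apart.

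The libraries differed in depth, from 7029207 to 13433276 counts in the deficient and from 5800698 to 6462146 counts in the control group (two-sided exact permutation p = 0.0167, the smallest value that 120 splits allow). Low members are therefore read with fewer counts in the controls. Their SE did not follow the control counts alone. Cmpk2, with 10 control counts, had an SE of 0.36, and Usp18, with 136 control counts, had an SE of 0.67. Deficient libraries 1 and 3 carried Xist, the RNA of female cells, at 657 and 733 CPM, and the other 8 at 0.345 CPM or less; without these 2 libraries, 17 members were higher and 5 lower, beside 29.7% and 28.3% of all genes. Within each group, no pair of libraries was as alike as counting noise alone would make it (smallest chi-square per gene 2.82).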

How the data were processed

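Stranded total RNA libraries (TruSeq, globin kit) were made from TH2 cultures, per the labels' protocols. Raw counts of reads, 1 row for each Ensembl gene, were deposited for 10 libraries; STAR 2.7.10a, HTSeq 0.13.5 and GRCm38 are named in the submitters' processing notes. No source used here names the strand setting or the annotation release, so genes that overlap others are uncertain, among them Irf9, Dhx58, Ifi35, Parp14 and Sp100. Reads shared with near-identical genes may be lost.

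IDs were matched to GENCODE M21 (49412 of 49671; the rest held 0.0226% of counts). Diet and batch came from the labels; replicate numbers were given by accession order and imply no pairs. Batch 1 held 5 deficient and 2 control libraries, batch 2 held 2 and 1.

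The fit used edgeR 4.0.16 in R 4.3.3: filterByExpr (minimum count 10), TMM scaling and a robust quasi-likelihood fit of diet and batch to all 10 libraries, adjusted over 13699 genes. Log2 fold changes are deficient over control; SE is the log2 fold change divided by the root of the F statistic. Levels are CPM on library totals. Intervals and floors (3 counts) cover counting error only. Motifs were searched in RefSeq promoter windows. Alternatives used limma 3.58.1 and DESeq2 1.42.0, other scalings, filters and thresholds, single batches and left-out libraries. The fit was also run on simulated counts, with far fewer changed genes than were called here. They held no batch difference and no split among the deficient libraries, so that run does not bear on either. Per-library values are given for the 12 called members of largest fold change and 4 signalling members; further per-library values, and Irgm2, were chosen after values were seen. Of the pathway lists, up to 3 called genes per direction, by smallest adjusted p, are named, and always the ligand, receptor, kinase, Irf and Socs1 genes given. Uba7, Il10rb, Ifnlr1 and further markers were added after their values were seen. Members, lists and the 2 added alternatives were chosen with earlier results of these data known. Figures were drawn with matplotlib 3.10.9. Some items are not reported here.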

Additional observations from a re-analysis of the deposited data

Results flagged for a closer look

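Among 73 tested genes examined, 2 had a deficient library far from the other 6 by Dixon's criterion, which chance gives in about 1 of 20 groups. Ifnar1 stood at 129 CPM in deficient library 5, against 116 CPM in the next library and 107 CPM in the lowest, and all 7 lay below the controls. Cd274 stood at 104 CPM in deficient library 1, against 122 CPM in the next and 134 CPM in the highest, and all 7 lay above the controls. No interferon-stimulated gene of the 29 tested met the criterion.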

How the results depend on the processing

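Of the 21 called members, 12 kept direction and side of the threshold in each of the 23 alternatives in which they were tested: Bst2, Ddx58, Eif2ak2, Ifi27l2a, Igtp, Mx1, Parp14, Samhd1, Sp100, Stat2, Xaf1 and Zbp1. No called member changed sign in any of them. Leaving out each library in turn gave 9 to 17 members higher and 5 to 7 lower, a median of 0.79 to 1.08, 3432 to 4107 genes higher and 3341 to 3989 lower, and 32 to 48 and 22 to 32 of the other pathway genes. Members higher were 9 in batch 1 alone, beside 24.7% of all genes, and 9 at an adjusted p below 0.01. No share of all genes is given at that stricter threshold, so the second count has no background to be read against. The median was 0.44 at a minimum count of 50, where 21 members were tested, 0.54 in batch 1 alone and 0.36 without deficient libraries 5 to 7. At least 2-fold, 2 members were lower, 1409 genes higher and 1193 lower, and 25 and 5 of the other pathway genes; of these, 20 were lower in batch 2 alone and 21 at an adjusted p below 0.01. Dhx58 changed sign, never called, with column totals (0.031), no filter (0.054) and batch 2 alone (0.145), and ran from -0.152 to 0.032 over the left-out libraries. In batch 2 alone Tapbp stood at 0.075 and Socs1 at 0.091. Il4 stood at -0.080 in batch 1 alone and -0.193 without deficient libraries 5 to 7, and ran from -0.081 to 0.147 over the left-out libraries. The causes were not tested. Without a count filter the median of all genes moved to 0.19, against 0.02, and member calls there are to be read against that shift. The share of promoters with a response element was 36% in the window from 100 bases before to 50 after the start, against 1.69% of all genes. No paired analysis was possible because the labels give no replicate numbers. Depth limits the 6 untested members and the 9 with fewer than 10 counts in each control library.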
